A study of Mus musculus with 3 samples.

Results

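Border-associated macrophages are the resident macrophages of the meninges, the perivascular spaces and the choroid plexus, at the edges of the brain. Among single nuclei sorted from the cortex of 5xFAD mice, which carry human amyloid transgenes, they were chosen by their RNA. A nucleus was counted as a border-associated macrophage when the genes Mrc1, F13a1, Cd163, Lyve1, Pf4, Ms4a7, Cbr2 and Clec12a together held at least 4 UMIs and at least 0.25% of its UMIs, and when the neuronal genes Meg3, Snap25, Syt1, Nrg3 and Kcnip4 held less than 0.5%. A UMI is a molecular tag that marks 1 captured RNA molecule. The rule found 273 of 27950 nuclei: 146 in the library called TRAP, 3 in the library called iPKR and 124 in the library called Eif2A. They are called macrophage nuclei here.

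The study asked what the integrated stress response does in microglial subsets. Each group was 1 library from the pooled cortex of 1 male and 1 female mouse of 6 months, so no difference between libraries or between classes of nuclei could be tested, and every interval given is a 95% interval for counting error only. The genotypes were 5xFAD;Cx3cr1CreErt2/+;Eef1a1LSL.eGFPL10a/+ for TRAP, 5xFAD; Cx3cr1CreErt2/+;Eef1a1LSL.NS3.eGFPL10a.iPKR/+ for iPKR, and, for Eif2A, 5xFAD;Cx3cr1CreErt2/+ with Eif2s1A/A, the transgene Tg(Eif2s1) and Eef1a1LSL.eGFPL10a/+. All mice had tamoxifen at 100 mg/kg in 6 doses between 4 and 6 weeks of age, which switches on Cre in cells that use the Cx3cr1 promoter. VEGF at 1 µg/kg, followed 30 min later by 5 mg/kg of ASV, was also given to the TRAP and iPKR mice, starting at 5 months and repeated for 4 weeks, and Eif2A mice did not have it. Genotype and this treatment differed together between TRAP and Eif2A and cannot be told apart. Nuclei were sorted for GFP, the tag that Cre releases, and the labels call the sorted nuclei microglia. The sorted libraries also held neuronal nuclei, and recombination was not measured in the nuclei.

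Border-associated macrophages take up material from cerebrospinal fluid and from the walls of vessels through scavenger receptors and C-type lectins. They share the growth factor receptor CSF1R and the factor PU.1 with microglia, but they lack SALL1, the factor that keeps microglial identity. They are commonly described as overlapping states, one with LYVE1 and CD163 and one with MHC class II.

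Upstream sequence was read for the genes that define the macrophage nuclei. RefSeq promoters of build GRCm38.p6 were at hand for 7 of the 8 selecting genes, 13 of the 15 genes named below as higher in macrophage nuclei and 8 of the 12 named as lower. The 250 bases before each start were searched on both strands for GAGGAAGT (PU.1), TGCTGAC (MAF) and CTA, any 4 bases and TAG (MEF2). No promoter of these genes held more than 1 of the motifs. Of all 27025 promoters, 2.44% held the PU.1 letters, 3.72% the MAF letters and 3.23% the MEF2 letters. Among the selecting genes only Pf4 held one, the PU.1 letters, and among the named higher genes only Cd209f held one, the MEF2 letters. Among the named lower genes only Glrp1 held one, the MAF letters. No match says only that these letters are not in this window. The 3 sequences below are shown because Mrc1 and Pf4 marked the nuclei and Cd209f was seen almost only in them. They run 5′ to 3′ on the strand of the gene, stop before the annotated gene, and have the matched letters in capitals: ACTTCCTC, the reverse complement of the PU.1 letters, with its first base at -10 from the start of Pf4, and the MEF2 letters, with their first base at -238 from the start of Cd209f. Positions count from the RefSeq start, which for Mrc1 and Cd209f lies inside the GENCODE gene, so these printed stretches end before it.
Mrc1, chr2:14229164-14229391, plus strand: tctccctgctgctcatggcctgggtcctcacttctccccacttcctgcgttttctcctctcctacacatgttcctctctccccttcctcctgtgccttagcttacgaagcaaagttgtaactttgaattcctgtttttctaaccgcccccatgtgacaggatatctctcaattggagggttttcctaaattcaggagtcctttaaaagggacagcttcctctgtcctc
Pf4, chr5:90772185-90772434, plus strand: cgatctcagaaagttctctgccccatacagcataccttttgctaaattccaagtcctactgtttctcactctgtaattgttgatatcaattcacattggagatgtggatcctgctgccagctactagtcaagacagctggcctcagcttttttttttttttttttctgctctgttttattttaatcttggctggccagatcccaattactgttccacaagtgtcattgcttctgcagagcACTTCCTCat
Cd209f, chr8:4105836-4106014, minus strand: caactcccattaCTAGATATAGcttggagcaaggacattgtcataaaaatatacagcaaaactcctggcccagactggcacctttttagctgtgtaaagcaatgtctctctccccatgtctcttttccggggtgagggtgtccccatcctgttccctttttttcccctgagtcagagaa

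The rule used the 8 selecting genes, so their values describe the selection and support nothing. Levels are given in CPM, the UMIs of a gene summed over the nuclei of a class in a library, per 1000000 UMIs of that class. Macrophage nuclei held 197973 UMIs in TRAP (median 1180.5 per nucleus), 2919 in iPKR (941) and 223415 in Eif2A (1727). With 3 UMIs in place of none, a gene would stand at 15.2 CPM in TRAP, 13.4 CPM in Eif2A and 1028 CPM in iPKR, and the 3 iPKR nuclei are therefore given as UMIs. Mrc1, the mannose receptor (chr2:14229392-14332057, GRCm38), was at 5415 CPM in TRAP and 5161 CPM in Eif2A macrophage nuclei. F13a1, the A subunit of coagulation factor XIII, was at 5314 CPM in TRAP and 4753 CPM in Eif2A. Both genes were found in nearly every macrophage nucleus. With nuclei thinned to 1000 UMIs, Mrc1 was seen in 94.2% of TRAP and 94.8% of Eif2A macrophage nuclei (97.3% and 98.4% unthinned). The same share was 0.129% and 0.0452% in neuronal nuclei (at least 2% of UMIs in the 5 neuronal genes), whose median depths were 8639 and 11778 UMIs, and 0.975% and 0.646% in microglial nuclei.

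The other selecting genes were each seen in a part of the macrophage nuclei. Cd163, the haemoglobin scavenger receptor, was at 1520 CPM in TRAP and 958 CPM in Eif2A. Lyve1, a hyaluronan receptor, was at 546 and 452 CPM, and Pf4, the chemokine CXCL4, at 258 and 345 CPM. Thinned to 1000 UMIs, Cd163 was seen in 59.0% and 50.3% of macrophage nuclei, Lyve1 in 25.4% and 27.8%, and Pf4 in 25.6% in both. Unthinned, Cd163 was seen in 66.4% and 62.1%, Lyve1 in 33.6% and 37.9%, and Pf4 in 27.4% and 36.3%. Ms4a7, a membrane protein of the MS4A family, stood at 510 CPM in TRAP and 703 CPM in Eif2A, Cbr2, a carbonyl reductase, at 136 and 260 CPM, and Clec12a, an inhibitory lectin receptor, at 101 and 53.7 CPM. In iPKR the 3 nuclei held 19 UMIs of F13a1, 12 of Mrc1, 4 of Cd163, 2 of Ms4a7, 1 each of Pf4, Cbr2 and Clec12a, and 0 of Lyve1. A median of 15 selecting UMIs per nucleus in TRAP, 7 in iPKR and 19 in Eif2A carried the selection, and 114 of the TRAP and 109 of the Eif2A nuclei had 10 or more. The member nearest the threshold had 0.299% selecting UMIs in TRAP and 0.258% in Eif2A, and the nearest nuclei left out had 0.224% and 0.217%. The neuronal limit alone removed 3 TRAP nuclei.

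**Figure D1:**
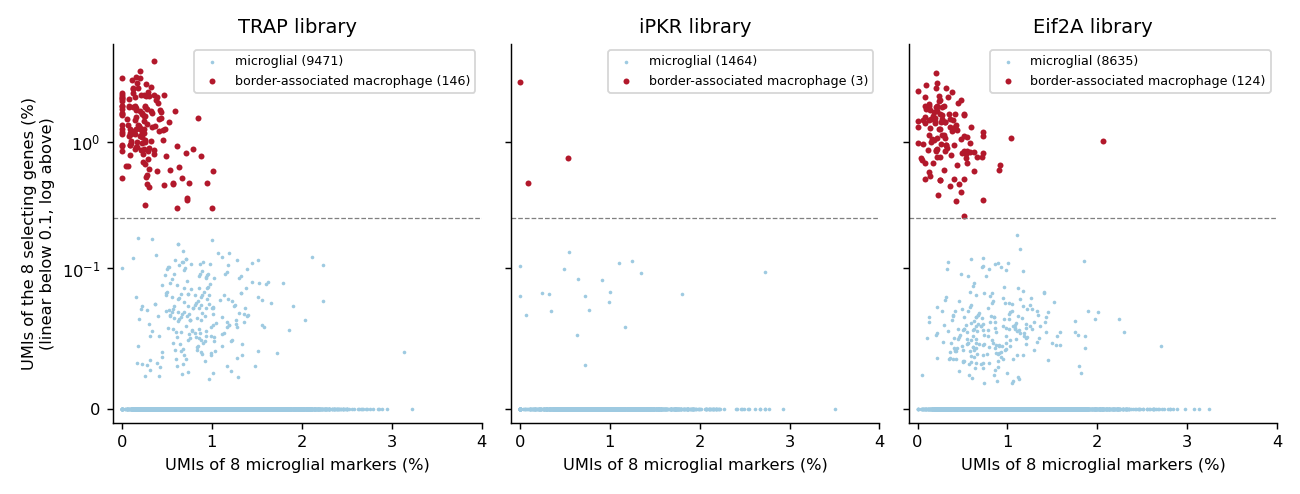
Each point is 1 nucleus, with the percentage of its UMIs in 8 microglial marker genes on the horizontal axis and in the 8 selecting genes on the vertical axis (linear below 0.1%, logarithmic above), for macrophage nuclei (red) and microglial nuclei (blue) of each library. The dashed line is the 0.25% threshold, and the macrophage nuclei lie above it by construction, most of them to the left of the bulk of the microglial nuclei.

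Microglial nuclei of the same libraries served as the reference. They were nuclei with at least 4 UMIs and 0.25% of UMIs in 12 genes common to macrophages (such as Csf1r, Inpp5d and Mertk), at most 1 UMI or less than 0.1% of the selecting genes, and less than 0.5% of the neuronal genes: 9471 in TRAP, 1464 in iPKR and 8635 in Eif2A. Their median depths of 1293 and 1737 UMIs in TRAP and Eif2A were close to those of the macrophage nuclei. No selecting UMI was present in 97.5%, 98.5% and 97.2% of them. The libraries shared 14 to 32 barcodes in pairs, and none of these belonged to a macrophage nucleus. Mitochondrial RNA took a median of 0.224% of UMIs in TRAP and 0.271% in Eif2A macrophage nuclei, against 0.399% and 0.425% in microglial nuclei.

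Of the macrophage and microglial nuclei together, macrophage nuclei were 1.52% in TRAP (146 of 9617, 1.28 to 1.78), 0.204% in iPKR (3 of 1467, 0.0422 to 0.596) and 1.42% in Eif2A (124 of 8759, 1.18 to 1.69). The TRAP and Eif2A intervals overlapped, and the iPKR interval lay below both. At the TRAP or the Eif2A share, iPKR would have held 22.3 or 20.8 such nuclei. The iPKR library also had the lowest number of microglial nuclei and 2531 neuronal nuclei, against 778 in TRAP and 296 in Eif2A, and the part of this in the low share was not tested. With 1 library each, the animals and the sort cannot be told apart from the genotype.

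Sex was called per nucleus from Xist and Y-linked genes, which splits each pool into its 2 animals as far as depth allows. In TRAP, 37 of 1409 male-called nuclei (2.63%, 1.86 to 3.60) and 42 of 4442 female-called nuclei (0.946%, 0.682 to 1.28) were macrophage nuclei, and 67 macrophage nuclei had no call. In Eif2A the shares were 2.49% (47 of 1890, 1.83 to 3.29) and 0.803% (40 of 4982, 0.574 to 1.09). The male-called share lay above the female-called share in both libraries, with intervals apart. Among nuclei of at least 1000 UMIs it was 2.60% against 0.887% in TRAP and 2.55% against 0.777% in Eif2A. In iPKR 0 of 195 male-called nuclei were macrophage nuclei, which allows a share of up to 1.87%, and 1 of 487 female-called nuclei was one (0.205%). The call rests on RNA that itself stood apart between the classes. Uty, a Y-linked demethylase gene, was at 157 CPM in TRAP macrophage nuclei against 68.0 CPM in microglial nuclei and at 215 against 80.9 CPM in Eif2A, while Eif2s3y, also Y-linked, was at 25.3 against 34.7 CPM and 67.1 against 56.1 CPM. Xist was at 1106 against 1387 CPM and 1464 against 2121 CPM. How far the level of these genes in each class sets the calls was not tested. Each library held 1 animal of each sex, so sex and animal cannot be told apart.

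**Figure D2:**
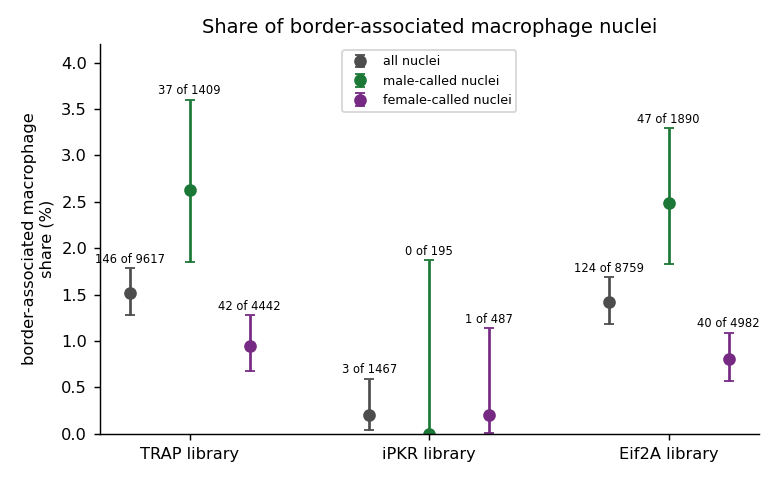
Points give the macrophage nuclei as a percentage of macrophage and microglial nuclei together in each library, for all, male-called and female-called nuclei, with the counts above and bars for the exact 95% binomial interval. TRAP and Eif2A lie at 1.52% and 1.42%, iPKR at 0.204%, and the male-called points of TRAP and Eif2A stand above the female-called ones.

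The class was then described against microglial nuclei within TRAP and within Eif2A. A gene was compared when it reached 50 CPM in either class in both libraries, and it was called higher or lower when it differed 2-fold or more in the same direction in both. Since the contrast is the one that the rule drew, no test was made. Of 4253 genes, 358 were higher in macrophage nuclei (8.42%) and 364 were lower (8.56%). The median log2 fold over all genes was -0.02 in TRAP and -0.07 in Eif2A. Across the 4253 genes the folds of the 2 libraries had Pearson r = 0.919, given as a description because genes are not independent. Of the 4253, 490 passed the 50 CPM limit in at least 1 library only through the macrophage nuclei, and so had to be higher there to be compared, and 235 of these were called higher. Of the other 3763 genes, which reached the limit in microglial nuclei in both libraries, 123 were higher (3.27%), and the gene groups below are also given over such genes. In turn, genes that reached the limit only through microglial nuclei had to be lower in macrophage nuclei to be compared, and the 364 include such genes.

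**Figure D3:**
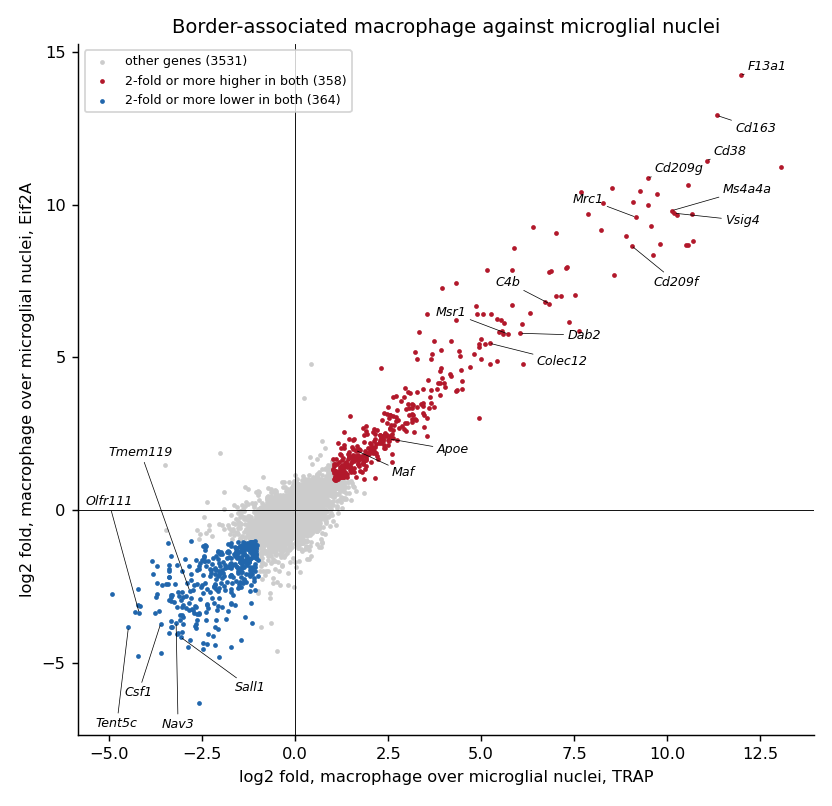
Each point is a gene, with its log2 fold of macrophage over microglial nuclei in TRAP (horizontal) and Eif2A (vertical), and a class at 0 UMIs set to 3. The 358 higher genes (red) and 364 lower genes (blue) lie along the diagonal, and the selecting genes F13a1, Cd163 and Mrc1 are at the upper right by construction.

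Markers of border-associated macrophages that the rule did not use were examined next. Of 40 such genes 36 could be compared, and 33 were higher, 1 was lower and 2 were neither, with a median log2 fold of 3.94 in TRAP and 4.38 in Eif2A. Of the 36, 20 passed the limit only through the macrophage nuclei, and of the 16 others 13 were higher, against 3.27% of all such genes. This list and the others were chosen with earlier results of these data known. The counts therefore describe the class and are no independent check of it. Stab1, a scavenger receptor, was at 2728 CPM in TRAP macrophage nuclei against 172 CPM in microglial nuclei, and at 3361 against 187 CPM in Eif2A. Folr2, a folate receptor, was at 157 against 3.21 CPM and 170 against 2.42 CPM. Dab2, an adaptor that gathers cargo into clathrin-coated pits, was at 2819 against 42.5 CPM and 2439 against 44.1 CPM. All 3 genes were far apart between the classes in both libraries. In the 3 iPKR nuclei 22 of the 40 genes were at 0 UMIs, while Apoe had 35 UMIs, Lyz2 31 and Rbpj 10.

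Csf1r, one of the 12 genes that chose the microglial nuclei, was at 1303 against 1416 CPM in TRAP and 1298 against 1221 CPM in Eif2A, and of the 12 genes 0 were higher and 2, Apbb1ip and Ly86, were lower, with medians of -0.39 and -0.36. Their level in microglial nuclei was set by that choice. Microglial markers were lower in macrophage nuclei but not absent. Tmem119, a surface protein of microglia, was at 35.4 CPM in TRAP macrophage nuclei against 253 CPM in microglial nuclei, and at 35.8 against 224 CPM in Eif2A. Sall1 was at 30.3 against 256 CPM and 13.4 against 239 CPM. P2ry12, the ADP receptor of microglial processes, was closer between the classes, at 540.5 against 1234 CPM and 586 against 1159 CPM. P2ry12 was seen in 40.4% and 55.6% of macrophage nuclei. Thinned to 1000 UMIs, it was seen in 36.4% and 40.8% of macrophage nuclei, 64.3% and 62.2% of microglial nuclei and 14.1% and 8.94% of neuronal nuclei, which should lack it. Cx3cr1, whose promoter drives the Cre, was at 500.1 CPM in TRAP and 546 CPM in Eif2A macrophage nuclei, against 1056 and 1003 CPM in microglial nuclei.

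Over the list of homeostatic microglial genes 14 of 22 were lower, against 8.56% of all genes, and 0 were higher. The median log2 fold was -1.62 in TRAP and -1.64 in Eif2A, and 5 of the 22 passed the limit only through microglial nuclei. The 8 microglial markers held a median of 0.228% and 0.271% of UMIs in macrophage nuclei and 0.905% and 0.895% in microglial nuclei. They reached 0.5% in 19 TRAP and 26 Eif2A macrophage nuclei, and without these nuclei the TRAP median of the list moved to -2.38. No doublet caller was run, and the part of doublets and of free RNA in these UMIs was not tested.

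Uptake receptors included genes that were nearly confined to macrophage nuclei in these libraries. Of 23 scavenger and pattern receptors compared, 16 were higher and 1, Lrp1, was lower, with a median log2 fold of 5.23 in TRAP and 5.46 in Eif2A, but 14 of them passed only through the macrophage nuclei and had to be higher to be compared. Of the 9 others 2, Stab1 and Tlr4, were higher, against 3.27% of all such genes, on few genes. Cd209f and Cd209g, lectins of the DC-SIGN family that lie close together on chromosome 8, had 23 and 31 UMIs in TRAP macrophage nuclei and 50 and 26 in Eif2A. In microglial nuclei they had 0 UMIs each in TRAP and 9 and 1 in Eif2A. Cd209f was 530-fold higher in TRAP, with the reference set at 3 UMIs, and 401-fold higher in Eif2A. Its log2 interval in TRAP began at 8.63. Cd209g was 715-fold higher in TRAP with the same setting, with a log2 interval from 9.10. Its log2 fold in Eif2A was 10.87 (8.27 to 16.23). Reads of near-identical members of this family may have been shared out differently by the counting, so each single value is uncertain.

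The C-type lectins Clec10a and Clec4n, a galactose-binding lectin and the fungal sensor dectin-2, had log2 folds of 8.28 (6.98 to 9.85) and 10.70 (8.08 to 16.06) in TRAP. In Eif2A the folds were 10.05 (8.41 to 12.38) and 8.82 (7.28 to 10.80). Their microglial values rested on 1 to 6 UMIs, hence the wide intervals. Better counted were Colec12, a collectin scavenger receptor, at 1126 against 30.0 CPM in TRAP and 752 against 17.1 CPM in Eif2A, and Msr1, the class A scavenger receptor, at 343 against 6.50 CPM and 372 against 6.82 CPM. Siglec1, the sialic acid receptor CD169, was at 207 against 1.97 CPM and 166 against 1.49 CPM. Cd36, a receptor for fatty acids and oxidised lipoproteins, was at 157 against 1.10 CPM and 71.6 against 0.558 CPM. Lrp1, a large lipoprotein receptor that microglia also use, went the other way, at 222 against 520 CPM and 134 against 487 CPM.

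Most genes of the machinery behind these receptors were called in neither direction. Of 19 endocytosis adaptors 5 were higher (Dab2, Ap2a2, Snx9, Wdfy3 and Ehd4) and 1 was lower (Sort1), with medians of 0.33 and 0.40. Of the 18 that reached the limit in microglial nuclei 4 were higher, a larger share than the 3.27% of all such genes, on few genes. Ap2a2, a large subunit of the AP-2 adaptor, was at 268 against 53.2 CPM in TRAP and 439 against 56.1 CPM in Eif2A. Of 22 lysosomal genes only Ctsc, the protease that activates granule proteases, was higher, with log2 folds of 1.90 and 1.63, and 3 were lower, among them the cathepsin genes Ctsd and Ctsl. With 1 of 22 higher and 3 lower, the lysosomal genes were near the shares of all genes.

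The remaining genes named by the fixed rule as highest were receptors, enzymes and interferon-inducible genes. Cd38, an ectoenzyme that breaks down NAD, was at 470 CPM in TRAP and 345 CPM in Eif2A macrophage nuclei, and rested on 3 and 2 UMIs in microglial nuclei, with log2 folds of 11.07 (9.47 to 13.37) and 11.44 (9.54 to 14.51). Vsig4, the complement receptor of the immunoglobulin family, was at 343 and 157 CPM, and Ms4a4a at 328 and 443 CPM, against less than 1 CPM in microglial nuclei. Tlr8, an endosomal sensor of single-stranded RNA, had 26 and 23 UMIs in macrophage nuclei against 2 and 4 in microglial nuclei, with log2 folds of 9.81 (7.81 to 12.93) and 8.70 (7.15 to 10.69). Aoah, which removes acyl chains from lipopolysaccharide, was at 803 against 5.19 CPM in TRAP and 868 against 3.54 CPM in Eif2A. Vav3, a guanine nucleotide exchange factor, was at 778 against 5.99 CPM and 703 against 1.30 CPM. Cmah, which makes a sialic acid, had log2 folds of 7.31 and 7.97, and Klra2, a lectin-like receptor, 9.64 (7.62 to 12.76) and 8.34 (7.04 to 9.91).

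Ifi203, Mndal and Ifi202b, of the interferon-inducible p200 family on chromosome 1, were at 495, 359 and 480 CPM in TRAP macrophage nuclei and at 434, 533 and 278 CPM in Eif2A. In microglial nuclei they lay between 0.496 and 1.31 CPM, except for Ifi202b in Eif2A at 0 UMIs. Ifi203 and Mndal overlap on the genome and the family is closely related, so these reads cannot be told apart with certainty. Ifi204 and Ifi207 of the same family were also higher, and with Slfn2 and Slfn5 they made up the 4 of 13 interferon response genes called higher, with 0 lower. Of the 13, 6 passed the limit only through the macrophage nuclei. Of the 7 others 1 was higher, too few genes to set apart from the 3.27% of all such genes. Irf9, a mediator of interferon signalling, had log2 folds of 0.31 (-0.65 to 1.12) and 0.67 (0.01 to 1.27).

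Complement genes went both ways. C1qa, C1qb and C1qc, the chains of C1q, were near equal between the classes, with log2 folds between -0.18 and 0.07. C4b, a component cleaved by C1, was at 192 against 1.68 CPM in TRAP and 242 against 2.23 CPM in Eif2A, and Cfp, properdin, at 60.6 against 1.97 CPM and 80.6 against 1.98 CPM. The receptor gene C5ar1 had log2 folds of 2.01 and 1.95, and Vsig4, given above, was higher as well. Itgam, a chain of complement receptor CR3, was lower, with -1.29 and -1.15. In all, 4 of 11 complement genes were higher and 1 was lower, and 3 of the 4 had passed the limit only through the macrophage nuclei. Of the 8 genes that reached it in microglial nuclei in both libraries 1 was higher, too few to set apart from the 3.27% of all such genes.

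Lipid and iron genes were higher in part. Apoe, the main lipoprotein of the brain, was at 17639 against 3045 CPM in TRAP and 26905 against 5338 CPM in Eif2A, 5.79-fold and 5.04-fold higher. Pltp, the phospholipid transfer protein, was at 202 against 5.92 CPM and 188 against 4.34 CPM, and Pla2g7, which hydrolyses platelet-activating factor, at 212 against 15.9 CPM and 407 against 8.68 CPM. Plin2, a coat protein of lipid droplets, had log2 folds of 1.90 and 1.66. Lpl, lipoprotein lipase, was lower, with 3 and 10 UMIs in macrophage nuclei and log2 folds of -3.40 (-5.68 to -1.85) and -2.18 (-3.24 to -1.30). Altogether 5 of 15 lipid genes were higher and 2 lower, and 5 of the 15 passed the limit only through the macrophage nuclei. Of the 10 others only Apoe was higher, too few genes to set apart from the 3.27% of all such genes. Of 9 iron and heme genes 1, Lrp1, was lower and 4 were higher: the iron exporter Slc40a1 (1.47 and 1.31), the biliverdin reductases Blvra (1.77 and 1.70) and Blvrb (3.24 and 2.95), and the ferroxidase Cp (2.11 and 2.64). Of the 9, 2 passed the limit only through the macrophage nuclei and had to be higher to be compared. Of the 7 others 2 were higher, against 3.27% of all such genes, on few genes.

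Disease-associated microglial genes, which microglia raise around amyloid plaques, were mixed. Of 22, 3 were higher (Apoe, Lyz2 and Myo5a) and 9 were lower, with medians of -0.63 and -0.77. All 22 reached the limit in microglial nuclei, and 3 passed only through these. Of all genes that reached it there 3.27% were higher, and of all genes 8.56% were lower. Trem2, a lipid receptor needed for that state, was at 500.1 against 1412 CPM in TRAP and 1047 against 2345 CPM in Eif2A. Cd9, a tetraspanin, was at 217 against 1361 CPM and 506 against 1979 CPM. Cst7, an inhibitor of cathepsins, had log2 folds of -1.72 and -1.17. Lyz2, lysozyme, was 6.24-fold and 5.18-fold higher. Clec7a is also a gene of this state and was not analysed here.

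Among transcription factors, 2 of 17 were higher (11.8%) and 3 were lower. All 17 reached the limit in microglial nuclei in both libraries, and 3 of them passed only through these. Of all genes that reached it there 3.27% were higher, so the share was larger, on few genes. Rbpj, the nuclear effector of Notch, was at 3551 against 126 CPM in TRAP and 3778 against 110 CPM in Eif2A. Maf was 3.09-fold and 3.89-fold higher. Sall1 and Sall3 were among the lower, the latter on 1 UMI in each library. Spi1, which encodes PU.1, was near equal at log2 folds of -0.17 (-0.68 to 0.30) and -0.11 (-0.51 to 0.27), as were Mef2a (-0.17 and -0.09), Mef2c (-0.15 and -0.14) and Runx1 (-0.05 and -0.16).

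TGF-beta signalling holds microglia in their state. Of 15 genes of this pathway 6 were lower in macrophage nuclei, against 8.56% of all genes, and 2 were higher, with medians of -1.11 and -0.65. Of the 15, 2, Smad7 among them, passed the limit only through microglial nuclei and had to be lower. In the same way 1 passed only through the macrophage nuclei and had to be higher. The receptor gene Tgfbr1 was at 621 against 2759 CPM in TRAP and 452 against 2471 CPM in Eif2A. Smad7, a feedback inhibitor, was at 25.3 against 194 CPM and 31.3 against 286 CPM. Itgav and Itgb5, chains of an integrin that can release TGF-beta, were also lower. Nrros, which presents latent TGF-beta to microglia, was higher at 1.11 and 1.25. Tgfbi, a matrix protein, was higher at 4.45 and 4.58.

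The lowest of all by the fixed rule, beside Sall1, included Csf1, the growth factor that acts on CSF1R, at 10.1 against 124 CPM in TRAP and 8.95 against 117 CPM in Eif2A. Csf1 rested on 2 UMIs in macrophage nuclei of each library, with log2 folds of -3.62 (-6.67 to -1.77) and -3.71 (-6.76 to -1.86). Plxdc2, a transmembrane receptor, was at 904 against 7509 CPM and 636 against 6758 CPM. Nav3, a microtubule-binding navigator protein, was at 288 against 2656 CPM and 201 against 2590 CPM. Apart from Plxdc2 and Nav3, the genes named as lowest were below 50 CPM in macrophage nuclei of both libraries. They passed the limit through microglial nuclei and had to be lower to be compared. Olfr111, an olfactory receptor gene, had 0 and 7 UMIs in macrophage nuclei. With macrophage nuclei set at 3 UMIs it was 18.4-fold lower in TRAP, where its log2 interval reached up to -3.90. In Eif2A it was 10.3-fold lower. Fat3, an atypical cadherin, had log2 folds of -3.17 and -3.18, and Slc24a3, a sodium, potassium and calcium exchanger, -4.23 (-6.11 to -2.87) and -3.10 (-4.31 to -2.12). Tent5c, Ptchd1, Glrp1, Plpp1 and Dtx4 rested on 1 to 5 UMIs in macrophage nuclei, with log2 folds of -4.49 to -3.15 in TRAP and -4.00 to -3.31 in Eif2A, and their intervals reached from -9.79 to -1.46 and from -7.05 to -1.76.

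Cytokines, adhesion molecules and channels gave further differences. Of 15 chemokines and growth factors 5 were higher, among them Ccl8 with log2 folds of 8.57 (6.38 to 11.79) and 7.70 (6.49 to 9.07), Ccl24 with 5.42 and 4.88, and Gas6, a ligand of MERTK, with 2.36 and 2.26, and 4 were lower. Pros1, the other ligand of MERTK, was among the lower, at -1.42 and -1.63. Of these 15 genes 4 passed the limit only through the macrophage nuclei and 5 only through microglial nuclei. Of the 11 that reached it in microglial nuclei in both libraries, 2 were higher, against 3.27% of all such genes, on few genes. Of 12 adhesion, matrix and coagulation genes 3 were higher, Itga4 among them, and 4 were lower. The 3 higher genes passed the limit only through the macrophage nuclei and had to be higher to be compared. Of the 9 others 0 were higher. Itga4, the alpha chain of the integrin VLA-4, was at 338 against 4.24 CPM in TRAP and 291 against 3.29 CPM in Eif2A. P2rx7, the ATP-gated channel, was at 1475 against 237 CPM and 1580 against 259 CPM. Of 16 purinergic and channel genes only P2rx7 was higher, and 3 were lower, among them Kcnma1 and Cacna1a, a potassium and a calcium channel. All 16 reached the limit in microglial nuclei in both libraries, and 5 passed only through these. Of all genes that reached it there 3.27% were higher, and 16 genes are too few to set apart from that share. Of 15 genes of MHC class I and its antigen supply 7 could be compared, with medians of 0.36 and 0.18. Of these 0 were called in either direction, on too few genes to set apart from the 8.42% and 8.56% of all genes.

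The integrated stress response was the subject of the study, but few of its genes reached the limit. Of 39 such genes 9 were compared, and 0 were called higher and 0 lower, a number too small to set apart from the 8.42% and 8.56% of all genes, with medians of -0.02 in TRAP and -0.01 in Eif2A. Cebpg, a partner of ATF4, had log2 folds of -0.91 (-1.75 to -0.18) and -0.36 (-0.91 to 0.14). Slc3a2, an amino acid transporter chain, had 0.38 (-0.23 to 0.93) and 0.36 (-0.11 to 0.80). Atf4 itself had 6 and 5 UMIs in macrophage nuclei and was below the limit. Among eIF2 subunits and kinases 6 were compared, and 0 were called in either direction, again too few to set apart from those shares. Eif2ak2, which encodes PKR, was at 121 against 107 CPM and 89.5 against 99.6 CPM.

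**Figure D4:**
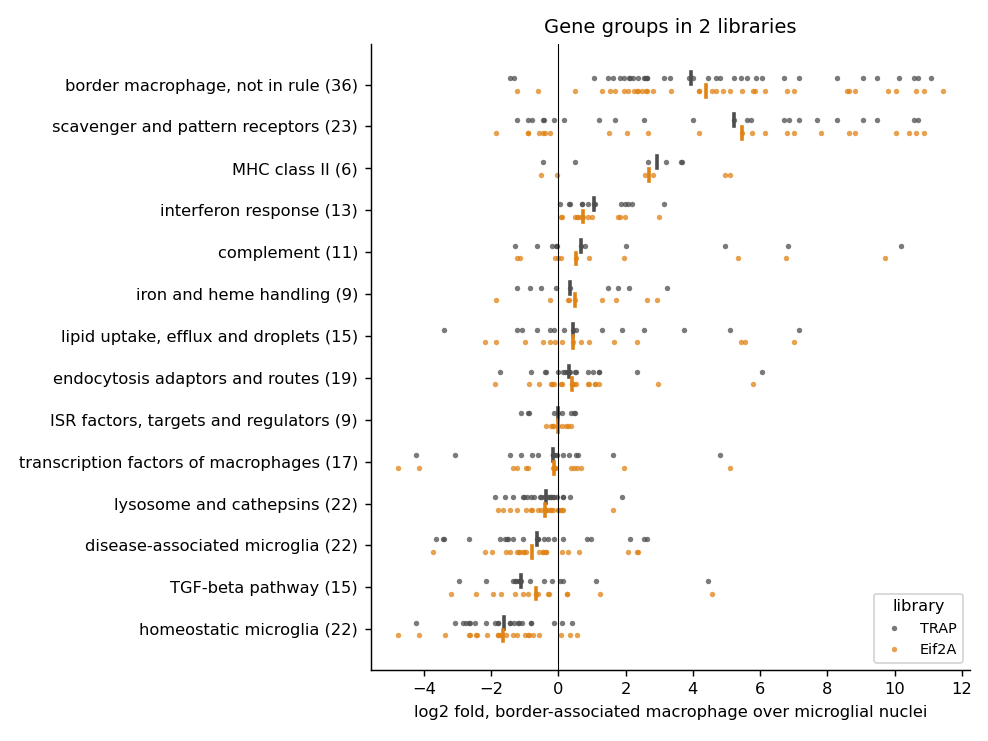
Each point is a gene of the named group, with its log2 fold of macrophage over microglial nuclei in TRAP (grey) and Eif2A (orange), and the vertical ticks are the medians over the genes compared, whose number is in brackets. Border macrophage genes and scavenger receptors lie to the right (medians 3.94 and 5.23 in TRAP), and homeostatic microglial genes to the left (-1.62).

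Markers of other cell types were summed in both classes. Their part in the results was not tested. B cell markers stood at 889 against 216 CPM in TRAP and 743 against 192 CPM in Eif2A, and most of this was Bank1, an adaptor gene, at 844 against 145 CPM and 680 against 108 CPM, while 6 of the B cell markers were at 0 UMIs in macrophage nuclei of each library. T and NK cell markers stood at 96.0 against 14.5 CPM in TRAP and 0 against 5.58 CPM in Eif2A. Monocyte and neutrophil markers were lower, at 202 against 801 CPM and 295 against 972 CPM, with 10 and 11 of them at 0. Ccr2, a receptor of blood monocytes, had 2 UMIs in TRAP and 0 in Eif2A macrophage nuclei. Dendritic cell markers summed to 894 against 2470 CPM and 882 against 2257 CPM, a sum that holds Siglech, also a microglial marker. Of 5 compared, Siglech and Cadm1 were lower, and Cd209a and Zbtb46 were higher. Astrocyte, endothelial and mural markers were at or below 157 CPM in macrophage nuclei of both libraries. Neuronal markers were at 798 against 1102 CPM in TRAP and 134 against 213 CPM in Eif2A, lower in Eif2A in both classes.

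Macrophage nuclei varied in MHC class II. H2-Aa, H2-Ab1, H2-Eb1 and Cd74, the chains and the invariant chain, were the 4 of 6 genes of this group called higher than in microglial nuclei. Of the 6, 3 passed the limit only through the macrophage nuclei. Of the 3 others Cd74 alone was higher, too few genes to set apart from the 3.27% of all such genes. Cd74 was at 323 against 51.3 CPM in TRAP and 430 against 61.6 CPM in Eif2A. At least 1 UMI of the 4 genes was found in 27 of 146 TRAP macrophage nuclei (18.5%, 12.6 to 25.8) and in 31 of 124 Eif2A nuclei (25%, 17.7 to 33.6). Thinned to 1000 UMIs the shares were 15.8% and 19.2%, against 5.60% and 7.02% in microglial and 0.483% and 0.559% in neuronal nuclei. In iPKR 1 of the 3 nuclei held all 34 UMIs of these genes. Of the nuclei with the genes, 10 in TRAP and 17 in Eif2A had 3 or more UMIs, with up to 26 and 34 in 1 nucleus. The split at 1 UMI cuts a range of counts and does not define a type.

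Lyve1 and MHC class II were found together as well as apart. Of the TRAP macrophage nuclei 10 had UMIs of both, 17 of MHC class II alone, 39 of Lyve1 alone and 80 of neither. The Eif2A numbers were 10, 21, 37 and 56. Lyve1 was seen in 37.0% of TRAP nuclei with MHC class II and 32.8% of those without, and in 32.3% and 39.8% in Eif2A. Thinned to 1000 UMIs, the 4 shares were 22.6%, 26.1%, 21.2% and 30.0%. Mrc1, in contrast, was at 3182 CPM with MHC class II and 6053 CPM without in TRAP, a log2 fold of -0.93 (-1.19 to -0.67), and the fold in Eif2A was -0.98 (-1.21 to -0.75). Cd163 gave -0.56 (-1.03 to -0.11) and -0.71 (-1.25 to -0.21). Klra2 was higher with MHC class II in both libraries, at 2.19 (0.88 to 3.53) and 1.73 (0.54 to 2.96). Clec12a, like Klra2 from the list of genes linked to MHC class II, gave -1.36 (-4.51 to 0.70) in TRAP and 2.41 (0.51 to 4.59) in Eif2A. Folr2 was lower in Eif2A at -2.14 (-4.48 to -0.47), while its TRAP interval spanned 0 (-2.31 to 0.83). The 2 TRAP UMIs of Ccr2 were in nuclei with MHC class II. Mrc1, Cd163, Lyve1 and Clec12a were among the genes that chose the nuclei, so their levels here depend on the rule. Their folds and shares describe the chosen nuclei and support no split into types.

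A few macrophage nuclei had RNA of the cell cycle. At least 5 UMIs of a list of cycling genes were found in 10 of 146 TRAP nuclei (6.85%), 1 of 3 iPKR nuclei and 3 of 124 Eif2A nuclei (2.42%), against 1.62%, 0.273% and 0.926% of microglial nuclei. The 10 TRAP nuclei held 173 of the 293 cycling UMIs of the TRAP macrophage nuclei. They had a median of 1977 UMIs, above the 1180.5 of all TRAP macrophage nuclei, and a count of UMIs depends on depth. Of these 10, 9 were female-called and 1 male-called. Cenpf, a kinetochore gene of the cycling list, was at 596 against 36.3 CPM in TRAP and 286 against 17.4 CPM in Eif2A. It was not limited to those nuclei: its 118 and 64 UMIs lay in 64 and 39 macrophage nuclei. These UMIs are part of the 293 cycling UMIs in TRAP and 109 in Eif2A, and they count toward the 5. The part of Cenpf in the shares of nuclei with 5 or more was not tested. Mki67 and Top2a, a marker of cycling cells and a topoisomerase, had 15 and 14 UMIs in TRAP, in 4 and 5 nuclei, and 1 UMI each in Eif2A.

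Eif2A and TRAP macrophage nuclei were then set side by side. A gene was compared when it reached 100 CPM in either library and was called when it differed 2-fold or more with a counting interval off 1. Of 2637 genes, 86 were higher in Eif2A (3.26%) and 133 were lower (5.04%), with a median log2 fold of -0.01, and 0.01 for the same genes in microglial nuclei. These counts compare 2 libraries of different depth, genotype and treatment, and they are no test of either. Of 34 border macrophage genes 1, Fcna, was higher and 1, Cd36, was lower, which is near the 3.26% and 5.04% of all genes. Fcna, ficolin A, had 7 UMIs in TRAP and 28 in Eif2A, a log2 fold of 1.83 (0.60 to 3.26). Vsig4 was lower at -1.13 (-1.76 to -0.52) and Cd36 at -1.13 (-2.10 to -0.21). Mrc1, at -0.07 (-0.19 to 0.05), and Stab1, at 0.30 (0.14 to 0.46), differed little.

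Several genes that were higher in Eif2A macrophage nuclei were higher in Eif2A microglial nuclei too. Trem2 was higher by a log2 fold of 1.07 (0.72 to 1.42), beside 0.73 in microglial nuclei, and Cd9 by 1.22 (0.70 to 1.76), beside 0.54. Ftl1, the ferritin light chain, was at 1.92 (0.95 to 3.02) beside 0.91, and Man2b1, a lysosomal mannosidase, at 1.34 (0.76 to 1.95) beside 0.55. Apoe was at 0.61 (0.55 to 0.67) beside 0.81. Over the disease-associated list 2 of 18 genes, Trem2 and Cd9, were called higher, too few genes to set apart from the 3.26% of all genes. The medians of that list were 0.53 in macrophage and 0.46 in microglial nuclei. Lysosomal genes had medians of 0.30 and 0.31. Whether any of these folds differs between the classes was not tested.

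The 6 highest genes by the fixed rule were Klf10, a TGF-beta-inducible zinc finger gene, Psenen, a subunit of gamma-secretase, the ribosomal protein gene Rps2, the small GTPase genes Rap2b and Rab5b, and Ttll4, a polyglutamylase. Klf10 had 2 UMIs in TRAP and 26 in Eif2A macrophage nuclei, in 2 and 20 nuclei, and a log2 fold of 3.53 (1.53 to 6.65), beside 0.34 (-0.29 to 0.98) in microglial nuclei. Psenen had 2 and 24 UMIs, in 2 and 21 nuclei, and 3.41 (1.40 to 6.54) beside 0.79. The other 4 had 4 to 8 UMIs in TRAP and 23 to 35 in Eif2A, with log2 folds of 1.95 to 2.47. All 6 were spread over many nuclei, with at most 4 UMIs in any one.

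The 6 lowest were Nrxn3, Sdk1, Ptprt, Ncam2, Nkain2 and Kif23. Nrxn3, Sdk1 and Ncam2 encode adhesion molecules of neurons, and Kif23 drives the last step of cell division. Nrxn3 had 37 UMIs in 9 TRAP macrophage nuclei, 15 of them in 1, and 1 UMI in Eif2A, a log2 fold of -5.38 (-10.73 to -2.82), and it stood at -4.65 in microglial nuclei. Ptprt had 14 of its 20 TRAP UMIs in 1 nucleus. Ncam2 had 36 UMIs in TRAP and Nkain2 31, and both had 0 in Eif2A. The summed neuronal markers, given above, were also lower in Eif2A in both classes, and their part in these folds was not tested. Sdk1 was at -4.53 (-7.63 to -2.59), while microglial nuclei gave -0.42 (-0.49 to -0.36). Kif23 had 20 UMIs in TRAP and 2 in Eif2A macrophage nuclei, at -3.50 (-6.64 to -1.45), beside -1.24 (-1.65 to -0.83) in microglial nuclei. Without the cycling nuclei the Kif23 fold in macrophage nuclei stood at -1.33.

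**Figure D5:**
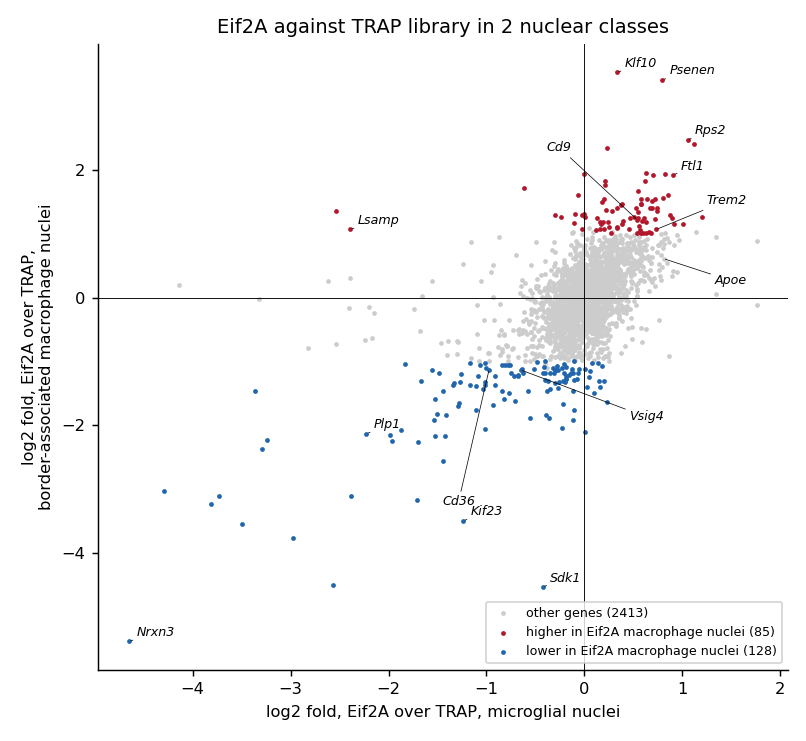
Each point is a gene, with its log2 fold of Eif2A over TRAP in microglial (horizontal) and macrophage nuclei (vertical), and genes called in macrophage nuclei are coloured. Of the 2637 genes, 11 had too few microglial UMIs for a fold and are not drawn. Nrxn3 and Kif23 lie low in both classes, Sdk1 mainly in macrophage nuclei, and Lsamp to the upper left.

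Genes of the integrated stress response were thinly counted in this comparison. Of the list 6 could be compared, and 0 were higher and 1 was lower, too few to set apart from the 3.26% and 5.04% of all genes. The lower one was Iars, an aminoacyl-tRNA synthetase gene, with 20 UMIs in TRAP and 6 in Eif2A. Its log2 fold was -1.91 (-3.52 to -0.54) beside -0.11 in microglial nuclei. The median of the 6 genes was 0.42 in macrophage and 0.30 in microglial nuclei. Cebpg was at 0.92 (-0.01 to 1.91) and Slc3a2 at 0.50 (-0.23 to 1.25). Ddit3, the factor CHOP, had 1 and 4 UMIs. Eif2s1, the gene altered in the Eif2A mice, had 7 and 18 UMIs in macrophage nuclei, at 1.19 (-0.14 to 2.69), and these counts do not separate the altered allele from the transgene. The counting intervals of Cebpg, Slc3a2 and Eif2s1 all held 0, so a difference in them was not detectable at this depth.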

How the data were processed

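Nuclear RNA was counted in 3 libraries of sorted cortex nuclei. The deposited matrices hold unnormalized UMI counts, per the file headers, and the submitters' processing notes name Cell Ranger 7.1.0 and mm10. Whether introns were counted, the annotation and the barcode filter are not given in the sources used here. All 27950 barcodes and 32285 genes were used, no doublet caller was run, and coordinates came from GENCODE vM21 (GRCm38). The macrophage rule and the gene lists were chosen with earlier results of these data known. UMIs were summed per class and library. Ratios of CPM carry exact conditional binomial intervals, shares exact Clopper-Pearson ones, both at 95%, and a class at 0 was set to 3 UMIs. Fixed rules named the 15 highest and 12 lowest genes against microglial nuclei, at 100 CPM or more in both libraries, and the 6 highest and 6 lowest between libraries, without the genes of the selection, sex and mitochondrial genes and unnamed gene models. List genes served as further examples. Male-called nuclei had at least 1 Y-linked UMI and at most 1 of Xist, female-called ones at least 2 of Xist and none Y-linked. Shares of nuclei with a UMI were also computed for nuclei thinned to 1000 UMIs, without shallower ones, which left 98 TRAP and 116 Eif2A macrophage nuclei. The scripts were tested on simulated data. Python 3.11.15, numpy 2.4.6, scipy 1.17.1, pandas 2.3.3 and, for TMM factors, edgeR 4.0.16 in R 4.3.3 were used. Alternatives covered the thresholds, the reference, depth, scaling and sex. Some results are not reported here.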

Additional observations from a re-analysis of the deposited data

Results flagged for a closer look

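Lsamp, a neuronal adhesion gene, stood higher in Eif2A than in TRAP in macrophage nuclei and lower in microglial nuclei, and the difference between the classes was not tested. It had a log2 fold of 1.07 (0.62 to 1.53) in macrophage nuclei and -2.39 in microglial nuclei. There were 60 UMIs of it in 27 TRAP macrophage nuclei and 142 in 36 Eif2A macrophage nuclei, at most 19 of them in 1 nucleus.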

How the results depend on the processing

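Each group has 1 library, so no result has a replicate, and no test stands behind any value. No paired analysis was possible because each group has 1 library. With no minimum level, 911 genes were higher and 657 lower than in microglial nuclei, and 189 were higher and 395 lower in Eif2A than in TRAP macrophage nuclei. With the minimum doubled, 242 were lower than in microglial nuclei, and 15 were higher and 43 lower in Eif2A. TRAP alone gave 590 higher and 588 lower genes, and Eif2A alone 603 lower. Male-called nuclei gave macrophage shares of 2.63% in TRAP, 0% in iPKR and 2.49% in Eif2A. Female-called nuclei gave 0.946% in TRAP and 0.803% in Eif2A, and 217 genes lower in Eif2A. The cause of these moves was not tested beyond the fewer nuclei and the altered limits. The other alternatives left these shares and counts within the main interval or 1.5 times the main count. They included the removal of cycling nuclei, chosen after seeing the data, which gave 361 genes higher than in microglial nuclei. Of 917 folds of named genes over microglial nuclei 827 stayed within the main counting interval, as did 145 of 162 folds between libraries. Of these folds 0 changed sign. List medians have no counting interval: 332 of 340 moved by less than 1.5-fold, and changes of their sign were not scored. TMM scaling shifted macrophage over microglial folds by -0.12 in TRAP and -0.05 in Eif2A. With 3 iPKR nuclei, only genes of very high level could be seen there.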

Other observations

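Gm49144, an unnamed gene model excluded from the names by rule, overlaps F13a1 on chromosome 13 (36836366 to 36885596, GRCm38). It had 124 UMIs in TRAP and 33 in Eif2A macrophage nuclei and 1 UMI in microglial nuclei of each, and its reads cannot be told apart from those of F13a1 with certainty. Hsf3, a heat shock factor gene next to Vsig4 on chromosome X, had 63 UMIs in TRAP and 17 in Eif2A macrophage nuclei and 3 in microglial nuclei of each. Auts2, a gene of neuronal development chosen after its values were seen, was at 202 CPM in TRAP and 233 CPM in Eif2A macrophage nuclei. In microglial nuclei it was at 150 CPM in TRAP and 8.50 CPM in Eif2A.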
